A study of Mus musculus with 12 samples.

Results

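The genes that give inhibitory neurons of the hippocampus their identity were followed across 4 treatments of aged mice with an amyloid transgene. The set is a list of symbols, drawn up with earlier results of these data known but with no threshold on a measured value: Gad1, Gad2, Slc32a1, Sst, Pvalb, Vip, Npy, Cck, Lhx6 and Reln. All 10 were among the 14881 genes of the count table, and all 10 passed the filter on low counts. The 12 mice were males of the APPswe strain, between 22 and 26 months old, a strain with a transgene for mutant amyloid precursor protein, so that by label the controls carry it too and no group without it was measured. Each mouse received 5 µL of an AAV1 vector into the cisterna magna, which expressed under the CMV promoter, a promoter not limited to 1 cell type, either enhanced green fluorescent protein (eGFP) or mVEGF-C, the mouse form of a factor that makes lymphatic vessels grow. Each also received weekly intraperitoneal injections of 40 mg/kg of control immunoglobulin (mIgG) or of mAdu, short for mAducanumab, which binds aggregates of amyloid beta. The groups were eGFP+mIgG (libraries 1 to 3), eGFP+mAdu (libraries 4 to 6), mVEGF-C+mIgG (libraries 7 to 9) and mVEGF-C+mAdu (libraries 10 to 12), with 1 mouse per library. The comparison of mVEGF-C+mAdu against eGFP+mAdu is called mVEGF-C with mAdu or combined treatment against eGFP+mAdu. By mAdu with mVEGF-C is meant mVEGF-C+mAdu against mVEGF-C+mIgG. The title of the series asks how meningeal lymphatic function bears on immunotherapy against amyloid beta.

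Inhibitory interneurons release GABA, which they make from glutamate with the decarboxylases encoded by Gad1 and Gad2 and load into vesicles with the transporter encoded by Slc32a1. They fall into classes known by the peptides and calcium-binding proteins they contain: parvalbumin cells wrap the cell bodies of pyramidal neurons, somatostatin cells contact their dendrites, and many Vip cells inhibit other interneurons. Loss of such cells or of their peptides is a long-studied feature of mice with amyloid deposits. In bulk tissue, fewer cells of a type and less RNA per cell cannot be told apart.

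The libraries held 23213612 to 29295266 counted reads, and the members held between 314 reads (Lhx6) and 10949 reads (Gad1) in a library. The study's design text names the whole right hippocampus as the tissue, whereas the source label names brain meninges. Markers of neurons of every kind had a median of 724 to 818 CPM (read counts scaled to a common library total) in a library, excitatory neuron markers 42.2 to 57.9 CPM, and choroid plexus markers 1.5 to 3.34 CPM. Libraries 3, 6, 9 and 12 lay between the other two of their group in 48.8%, 45%, 49.8% and 45.6% of all genes, against 22.9% to 28.4% for the other libraries. Among the members they took the middle place for 5, 6, 7 and 7 of 10 genes. App, the gene of the amyloid precursor protein, ran from 4721 to 5507 CPM in 10 of the mice, whereas the eGFP+mAdu mice 5 and 6 had 1342 and 3716 CPM, so that the App level of mouse 5 goes against its strain label. Whether libraries 3, 6, 9 and 12 hold material of the other mice of their group was not tested; if they did, n = 3 would overstate the number of separate mice and the p-values would be too low. For Gad1, Sst, Npy, Pvalb and Reln, values without libraries 3, 6, 9 and 12 and values without mice 5 and 6 are given. Leaving out mice 5 and 6 leaves mouse 4 as the only library of eGFP+mAdu, so those values are given as effect sizes alone.

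Transcription of several neuropeptide genes is known to respond to cyclic AMP through a palindrome in their promoters, TGACGTCA, or through its shorter core, TGACG. Promoters of RefSeq (GRCm38.p6, 250 bases before to 50 bases after a start) were found for all 10 members, 13 promoters in all. The palindrome occurred in 1 of the 13, that of Sst, and in 1.79% of 32851 promoters. The core, which the palindrome contains, occurred on either strand in 4 of the 13, those of Sst, Vip, Cck and Gad2, and in 20.8% of all promoters. TGANTCA, the element of AP-1 proteins, occurred in 1 promoter of Lhx6 and in 7.81% of all. A match describes letters only, and no binding was measured. The stretches of 30 bases that hold the core are shown because they set 3 of the peptide genes and 1 enzyme gene side by side. They are written 5′ to 3′ on the strand of the gene, with the core, or its reverse complement where it lies on the opposite strand, in capitals.
Sst: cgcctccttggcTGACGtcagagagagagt
Vip: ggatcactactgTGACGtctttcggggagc
Cck: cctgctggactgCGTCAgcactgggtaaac
Gad2: ccatttcccttcCGTCActctctcatctcc
The Sst stretch lies at chr16:23890875-23890904 on the minus strand, and its core begins 48 bases before the start and runs on into the full palindrome. The Vip stretch lies at chr10:5639127-5639156 on the plus strand, with the core beginning 79 bases before the start. For Cck the stretch is chr9:121495724-121495753 on the minus strand, and for Gad2 it is chr2:22622282-22622311 on the plus strand, with the capitals beginning 47 and 33 bases before the start. Starts in this paragraph are those of RefSeq. The gene bounds given below are those of GENCODE M21, and for Sst and Gad2 they begin further upstream. The Sst and Gad2 stretches therefore fall within those bounds. The log2 changes of Sst, Vip, Cck and Gad2 under mAdu with eGFP were 0.17, 0.15, -0.03 and 0.09, which differ in sign, and none of them passed the test described below.

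Levels of the 10 genes were first ordered within the tissue, as CPM per kilobase of the gene's principal transcript. Cck, which encodes the peptide cholecystokinin and is also made by pyramidal neurons, was highest at a median of 256 CPM per kb over the 12 libraries. Sst, for somatostatin, followed at 116 and Gad1 at 112 CPM per kb, and the ranges of this pair overlapped. Npy, for neuropeptide Y, stood at 55.7 CPM per kb and Pvalb, for the calcium buffer parvalbumin, at 31.7 CPM per kb, each apart from its neighbours over all 12 libraries. Gad2 (21.3), Slc32a1 (18.6), Vip (14.3) and Reln (9.78 CPM per kb) formed a series in which each gene's range overlapped that of the next. Lhx6, a transcription factor of interneurons born in the medial ganglionic eminence, was lowest at 4.30 CPM per kb. With the length of all exons of a gene in place of the principal transcript, Npy took place 3 and Gad1 place 4, and the other places stayed as they were. The RNA was linearly amplified before sequencing, so reads may not be spread evenly along a transcript, and the order between genes rests on these lengths.

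**Figure D1:**
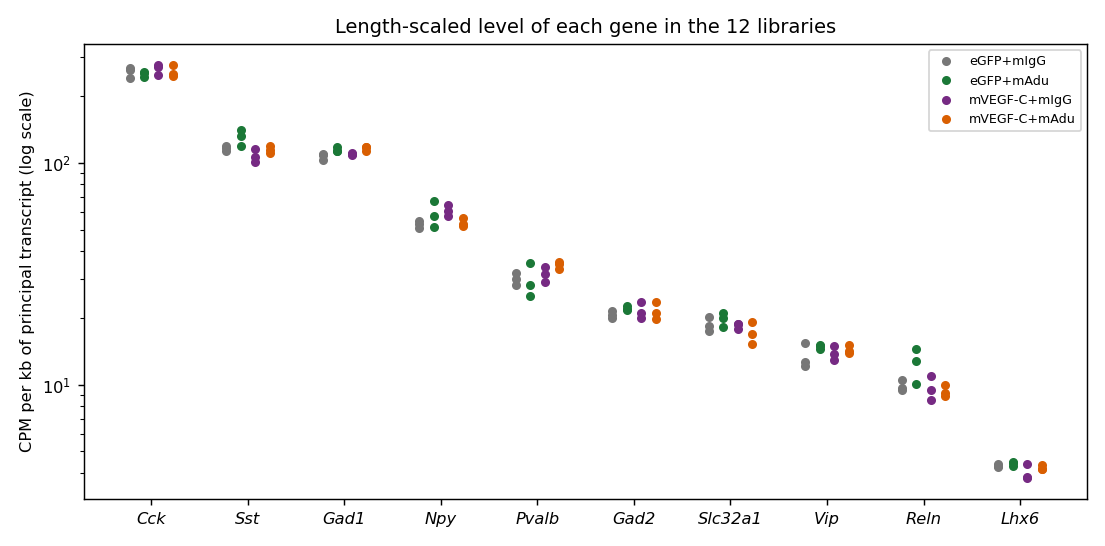
Length-scaled level of each gene (vertical axis, CPM per kilobase of principal transcript, log scale) in each of the 12 libraries, with 1 point per library coloured by group. Cck is highest (median 256) and Lhx6 lowest (median 4.30), and the 4 groups lie on top of each other relative to the distance between genes.

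The spread over mice was small. Highest and lowest library differed by 1.15 times for Gad1 and Cck and by 1.69 times for Reln, with the other 7 genes between these. The coefficient of variation over the 12 libraries ran from 4.04% (Gad1) to 16.6% (Reln).

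Gad1 encodes the decarboxylase that supplies most GABA of the cell body (GRCm38 chromosome 2, 70553072 to 70602014, plus strand). It was measured at 365.5, 345 and 369 CPM in eGFP+mIgG, 379, 395 and 381 CPM in eGFP+mAdu, 364, 368 and 370.3 CPM in mVEGF-C+mIgG, and 382, 396 and 395 CPM in mVEGF-C+mAdu. All 6 mice given mAdu lay above all 6 given mIgG. Group means were 360.1 ± 12.9 (SD, n = 3), 385 ± 8.84, 368 ± 3.16 and 391 ± 8.08 CPM in the same order. Averaged over the vectors, the log2 change under mAdu was 0.09 (SE 0.025, 95% interval 0.039 to 0.147), with an edgeR adjusted p of 0.099, above the threshold of 0.05. The change was 0.10 with eGFP and 0.09 with mVEGF-C, and mVEGF-C averaged over antibodies gave 0.03 (edgeR adjusted p = 0.662). Combined treatment against eGFP+mIgG gave 0.12 (SE 0.036, edgeR adjusted p = 0.0845). The DESeq2 Wald test called Gad1 in the average over vectors (adjusted p = 0.0332) and in the combined treatment (adjusted p = 0.0489). Over 21 alternatives the averaged change stayed between 0.08 and 0.11, with adjusted p from 0.0146 to 0.835. Without libraries 3, 6, 9 and 12 it was 0.11 (edgeR adjusted p = 0.835), and without mice 5 and 6 it was 0.08.

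Gad2 encodes the decarboxylase found mainly at nerve terminals (chromosome 2, 22622205 to 22693874, plus strand). Its levels were 124, 115 and 118 CPM in eGFP+mIgG and 125, 126 and 129.8 CPM in eGFP+mAdu, which do not overlap. In mVEGF-C+mIgG they were 114, 135 and 121 CPM, and in mVEGF-C+mAdu 114, 135 and 121 CPM, so that these groups cover the same range. Its log2 changes in the 5 comparisons of 2 groups ran from -0.04 to 0.09, with no edgeR adjusted p below 0.677. Gad1 and Gad2 therefore did not show the same order of groups, although the difference between these genes was not tested. With the level of striatal neuron markers as a covariate, some Gad2 values turned in sign. For mAdu with eGFP the value was then -0.04 (edgeR adjusted p = 0.816), and for mVEGF-C with mAdu it was 0.14 (edgeR adjusted p = 0.439).

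Slc32a1 encodes the vesicular GABA transporter (chromosome 2, 158610767 to 158615748, plus strand). It stood at 56.5, 48.8 and 51.3 CPM in eGFP+mIgG, 58.8, 50.7 and 55.8 CPM in eGFP+mAdu, 52.6, 52.7 and 50.01 CPM in mVEGF-C+mIgG, and 42.7, 53.4 and 47.3 CPM in mVEGF-C+mAdu. Library 10 was the lowest of the 12 and library 4 the highest, and the groups overlapped in every comparison. The largest of its changes was mVEGF-C+mAdu against eGFP+mAdu, a log2 value of -0.21 (SE 0.075, edgeR adjusted p = 0.23). With the level of striatal neuron markers as a covariate that value was -0.04 (edgeR adjusted p = 0.906). Slc32a1 shares 697 exon bases with Gm14205 on the opposite strand, and whether counting used the strand is not given in the sources used here.

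**Figure D2:**
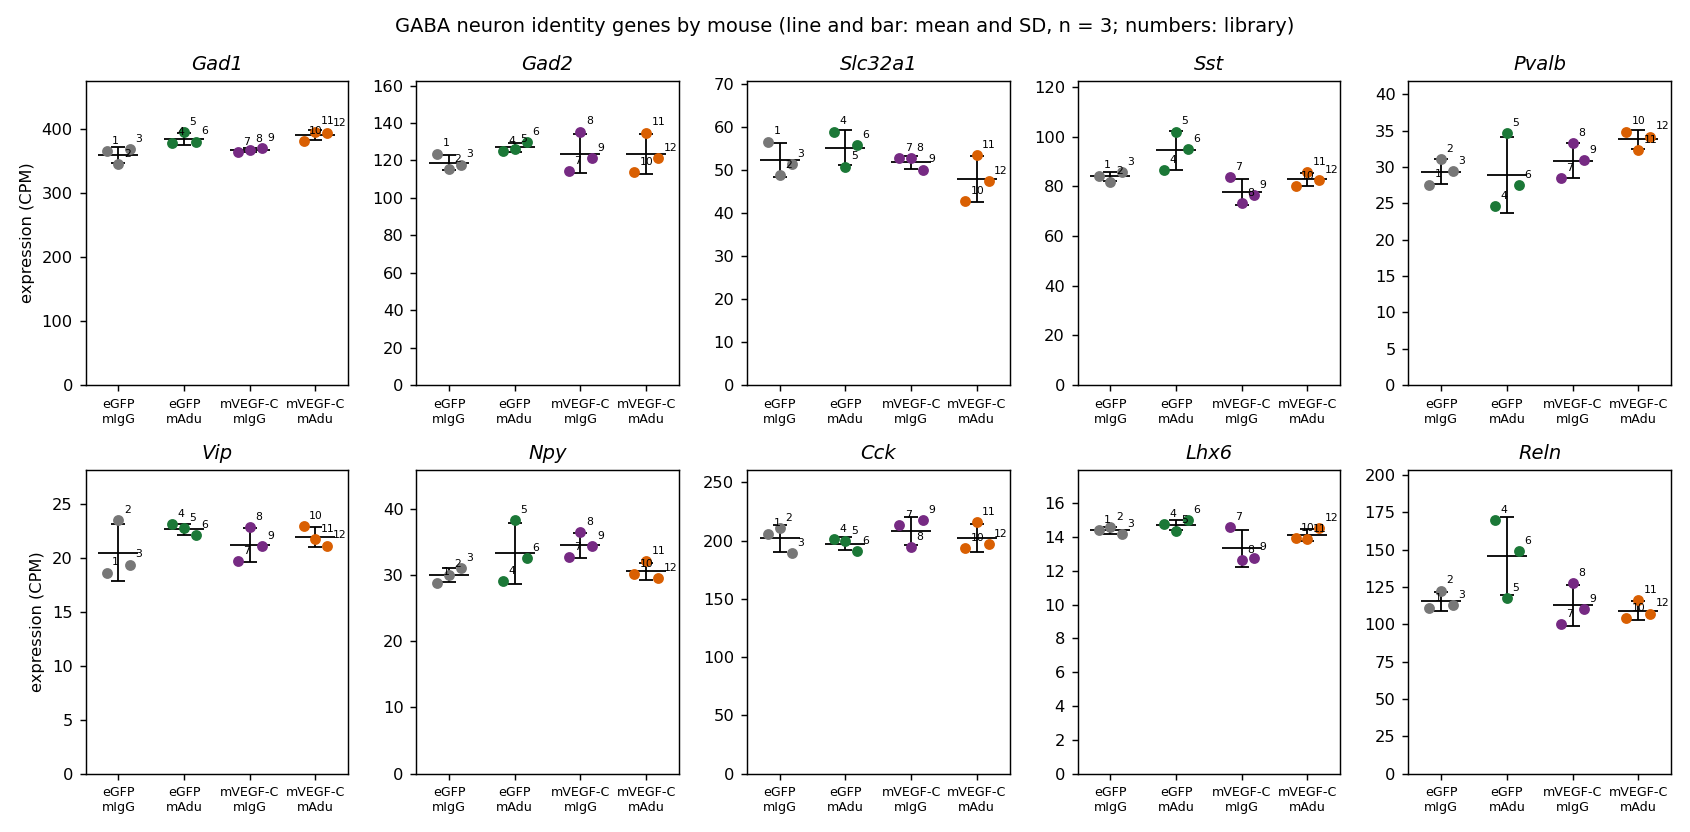
Expression in CPM (vertical axes, from 0) of the 10 genes in the 4 groups, with 1 numbered point per library and the mean and SD of 3 mice as lines. Gad1 lies higher in the 6 mAdu mice (379 to 396 CPM) than in the 6 mIgG mice (345 to 370.3 CPM), and Reln is highest in libraries 4 and 6 (169 and 149 CPM).

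Sst marks the dendrite-targeting interneurons, and its product somatostatin inhibits release from its target cells (chromosome 16, 23889573 to 23890958, minus strand). It was measured at 84.3, 81.9 and 85.7 CPM in eGFP+mIgG, 86.4, 102 and 95.1 CPM in eGFP+mAdu, 83.6, 73.1 and 76.3 CPM in mVEGF-C+mIgG, and 80.2, 85.7 and 82.5 CPM in mVEGF-C+mAdu. The eGFP+mAdu mice were above the eGFP+mIgG mice and above the mVEGF-C+mAdu mice without overlap. Averaged over antibodies, mVEGF-C against eGFP gave a log2 change of -0.15 (SE 0.041, 95% interval -0.24 to -0.06), and the edgeR adjusted p was 0.11. Averaged over vectors, mAdu against mIgG gave 0.13 (SE 0.041, edgeR adjusted p = 0.15). The interaction of vector and antibody was -0.08 (SE 0.082, edgeR adjusted p = 0.941). With library 7 left out, the mVEGF-C average was -0.18 and passed (edgeR adjusted p = 0.0346), beside 1.7% of all genes. Without libraries 3, 6, 9 and 12 it was -0.13 (edgeR adjusted p = 0.816), and without mice 5 and 6 it was -0.09. Leaving out mice 5 and 6 also took the mAdu average of Sst to 0.07, mAdu with eGFP from 0.17 to 0.04 and mVEGF-C with mAdu from -0.19 to -0.06.

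Npy encodes a peptide of neurogliaform, ivy and many somatostatin cells (chromosome 6, 49822710 to 49829507, plus strand). Its levels were 28.8, 30.03 and 31.04 CPM in eGFP+mIgG, 29.1, 38.2 and 32.5 CPM in eGFP+mAdu, 32.6, 36.4 and 34.4 CPM in mVEGF-C+mIgG, and 30.1, 32.0 and 29.5 CPM in mVEGF-C+mAdu. The mVEGF-C+mIgG mice lay above both eGFP+mIgG and mVEGF-C+mAdu without overlap. The log2 change was 0.20 (SE 0.08) for mVEGF-C under mIgG and -0.17 (SE 0.08) for mAdu under mVEGF-C, with edgeR adjusted p of 0.593 and 0.375. The interaction was -0.32 (SE 0.11, 95% interval -0.56 to -0.09), at an unadjusted p of 0.0111 and an edgeR adjusted p of 0.666. It was negative in each of 21 alternatives, from -0.46 to -0.13, and passed in none of them. The value of -0.13 was that without mice 5 and 6. Without them the Npy values that involve eGFP+mAdu also turned in sign, from 0.15 to -0.04 for mAdu with eGFP and from -0.12 to 0.07 for mVEGF-C with mAdu. Without libraries 3, 6, 9 and 12 the interaction was -0.35 (edgeR adjusted p = 1).

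Vip, for vasoactive intestinal peptide (chromosome 10, 5639218 to 5647617, plus strand), ranged from 18.6 CPM in library 1 to 23.5 CPM in library 2, which belong to the same group, eGFP+mIgG. No groups of it were apart, and its log2 changes in comparisons of 2 groups ran from -0.05 to 0.15 with no edgeR adjusted p below 0.483. Cck (chromosome 9, 121489824 to 121495694, minus strand) ranged from 189 CPM in library 3 to 217 CPM in library 9. Its group means were 202 ± 11.4, 197 ± 5.51, 208 ± 12.2 and 202 ± 12.1 CPM (SD, n = 3), its changes ran from -0.04 to 0.04, and its intervals reached from 0.898 to 1.12 times. Cck was thus the peptide gene with the narrowest range of change, and since pyramidal neurons also make it, its level in whole tissue covers more than interneurons.

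Pvalb marks fast-spiking basket and axo-axonic cells (chromosome 15, 78191114 to 78206400, minus strand). It stood at 27.6, 31.1 and 29.4 CPM in eGFP+mIgG, 24.6, 34.7 and 27.5 CPM in eGFP+mAdu, 28.5, 33.2 and 30.9 CPM in mVEGF-C+mIgG, and 34.8, 32.3 and 34.2 CPM in mVEGF-C+mAdu. The combined group was above eGFP+mIgG without overlap, and mouse 5 stood apart from the other 2 mice given eGFP+mAdu. Combined treatment against eGFP+mIgG gave a log2 change of 0.21 (SE 0.097, edgeR adjusted p = 0.243), and against eGFP+mAdu 0.23 (SE 0.096, edgeR adjusted p = 0.3). Without mouse 5 the latter was 0.38 and passed (edgeR adjusted p = 0.0411), beside 0.739% of all genes. Without mice 5 and 6 it was 0.46, a value set against mouse 4 alone, which had the lowest Pvalb of the 12. For mVEGF-C averaged over antibodies Pvalb gave 0.15 (edgeR adjusted p = 0.296), 0.23 without mouse 5 (edgeR adjusted p = 0.0453, beside 1.26% of all genes) and 0.27 without mice 5 and 6. With the level of excitatory neuron markers as a covariate, the change against eGFP+mIgG was 0.33 and passed (edgeR adjusted p = 0.02), beside 5.06% of all genes, and with striatal marker levels it was 0.20 and did not (edgeR adjusted p = 0.303). Without libraries 3, 6, 9 and 12 the changes were 0.20 and 0.18, with edgeR adjusted p of 0.709 and 0.886.

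Lhx6 (chromosome 2, 36081953 to 36105408, minus strand) lay between 12.6 CPM in library 8 and 15.0 CPM in library 6, and no groups were apart. Its changes ran from -0.11 to 0.08 with no edgeR adjusted p below 0.678. It was counted with the fewest reads of the set, 314 to 426 in a library.

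Reln encodes reelin, a secreted protein that guides neuronal layering in development and in the adult comes from interneurons near the hippocampal fissure, from remaining Cajal-Retzius cells and from entorhinal cells (chromosome 5, 21884454 to 22344702, minus strand). It was measured at 111, 122 and 113 CPM in eGFP+mIgG, 169, 118 and 149 CPM in eGFP+mAdu, 100.2, 127 and 110.3 CPM in mVEGF-C+mIgG, and 104, 116 and 107 CPM in mVEGF-C+mAdu. Libraries 4 and 6 were the highest of the 12, while library 5 of the same group lay within the range of the other groups. The log2 change was 0.34 (SE 0.10) for mAdu with eGFP, with an edgeR adjusted p of 0.344. Combined treatment against eGFP+mAdu gave -0.41 (SE 0.10, 95% interval -0.63 to -0.19), with an edgeR adjusted p of 0.115, and these groups did not overlap. For mVEGF-C averaged over antibodies the value was -0.22 (SE 0.074, edgeR adjusted p = 0.172). The interaction was -0.38 (SE 0.15, edgeR adjusted p = 0.681).

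With edgeR, Reln passed when library 5 was left out. The changes were then 0.47 (edgeR adjusted p = 0.0432) for mAdu with eGFP, -0.55 (0.0123) for combined treatment against eGFP+mAdu and -0.29 (0.0262) for mVEGF-C averaged over antibodies, where 0.141%, 0.739% and 1.26% of all genes passed. Leaving out mice 5 and 6 leaves mouse 4 as the only library of its group, with its spread taken from the others. The same 3 changes were then 0.56, -0.63 and -0.33, as effect sizes alone, and mouse 4 had the highest Reln of the 12. In the last 2, that fit called 0.329% and 0.82% of all genes. With no spread within eGFP+mAdu, it cannot decide whether Reln passed. The interaction of Reln without mice 5 and 6 was -0.60, and the mAdu average went from 0.15 to 0.26. With all 12 libraries, limma-voom with sample quality weights called Reln in 4 comparisons, given below. Without libraries 3, 6, 9 and 12 combined treatment against eGFP+mAdu gave -0.39 (edgeR adjusted p = 0.876). Reln shares 246 exon bases with Gm10475 on the opposite strand.

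Markers of striatal neurons and of Cajal-Retzius cells were set beside Reln in each library. All 14 listed markers of striatal projection neurons were measured, with a summed level of 277 to 282 CPM in eGFP+mIgG, 292 to 302 CPM in eGFP+mAdu, 274 to 321 CPM in mVEGF-C+mIgG and 274 to 289 CPM in mVEGF-C+mAdu. Their mean centred log2 level was highest in libraries 8, 4 and 6 (0.24, 0.18 and 0.12), which are also the libraries with the highest Reln, and lowest in library 10 (-0.33). With that level as a covariate, the log2 value of Reln was 0.17 for mAdu with eGFP and -0.18 for combined treatment against eGFP+mAdu, with edgeR adjusted p of 0.626 and 0.658. Cajal-Retzius markers, of which 8 of 10 were measured and Lhx1 and Lhx5 were not in the table, summed to 167 to 186 CPM in eGFP+mIgG, 174 to 183 CPM in eGFP+mAdu, 173 to 186 CPM in mVEGF-C+mIgG and 173 to 182 CPM in mVEGF-C+mAdu. Their centred level was highest in libraries 6, 4, 1 and 7 (0.27, 0.24, 0.21 and 0.18), of which library 7 had the lowest Reln of the 12. It was lowest in library 10 (-0.68), where the summed level of 173 CPM was within the range of the others. The median of the list was only 2.29 to 2.90 CPM in a library, so the sum rests on a few genes and says little about the rest. Of the list, Ebf3 and Eomes stood at only 0.767 ± 0.042 and 0.444 ± 0.49 CPM (SD, n = 3) in mVEGF-C+mAdu, and 1 of these libraries had no read of Eomes. For combined treatment against eGFP+mAdu the list had 4 positive and 4 negative values with a median of -0.03, and its part in the Reln values was not tested.

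**Figure D3:**
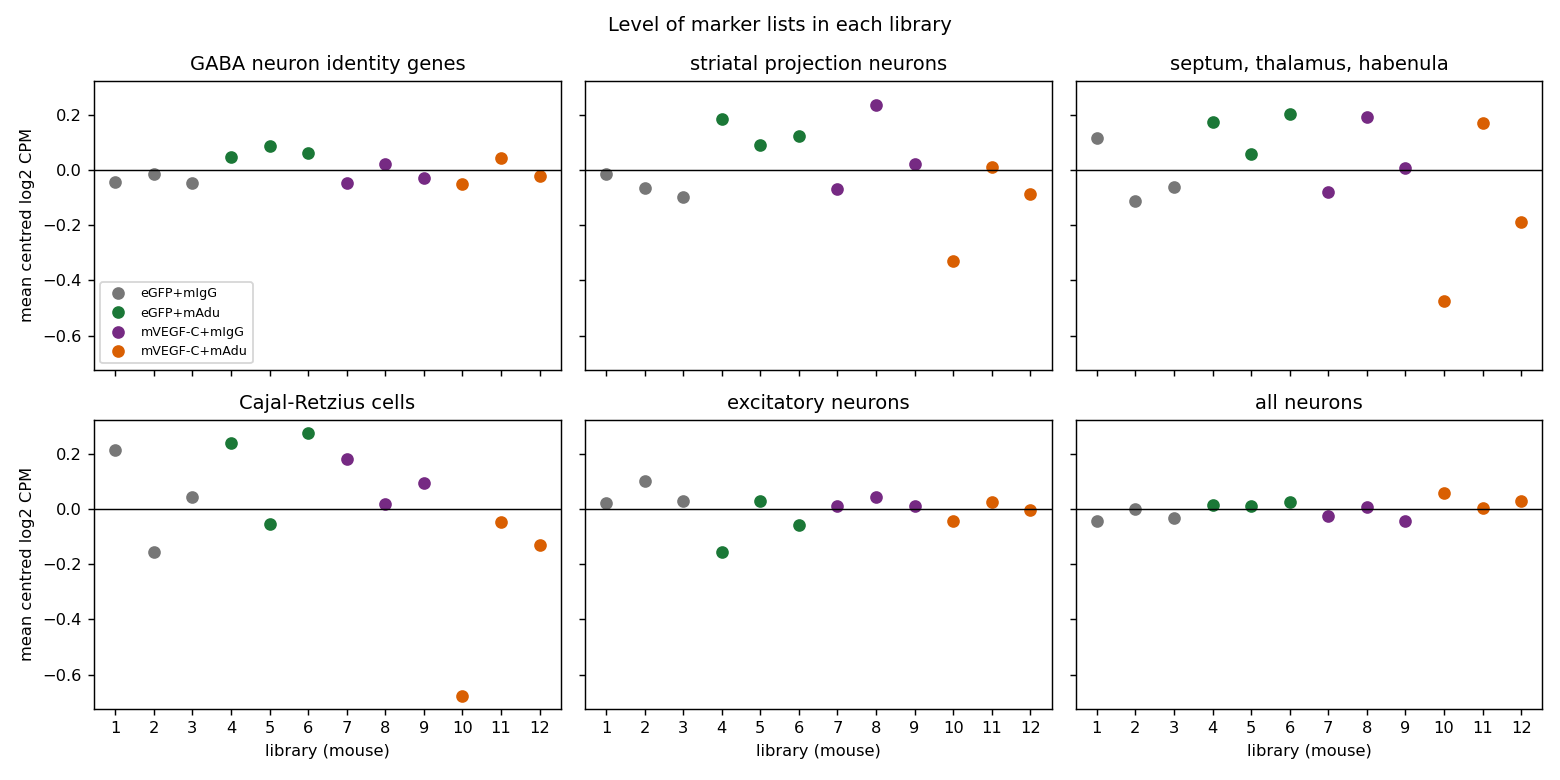
Mean centred log2 CPM (vertical axes) of 6 gene lists in the 12 libraries (horizontal axes), with 1 point per library coloured by group. The 10 identity genes stay between -0.05 and 0.09, whereas striatal markers run from -0.33 to 0.24 and Cajal-Retzius markers from -0.68 to 0.27.

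Across all comparisons, the edgeR quasi-likelihood test called none of the 10 genes at an adjusted p under 0.05. It called few genes of any kind: 0.0336% of all genes for mAdu with eGFP, 0.208% for mAdu with mVEGF-C, 0.0403% for mVEGF-C with mIgG, 0.047% for mVEGF-C with mAdu, 2.18% for combined treatment against eGFP+mIgG, 0.0134% for the interaction, 0.571% for mAdu averaged over vectors and 0.39% for mVEGF-C averaged over antibodies. At an unadjusted p under 0.05 there were, in the same order, 3, 2, 1, 4, 2, 2, 2 and 3 of the 10 members, beside 9.21%, 12.7%, 7.91%, 14.3%, 20.4%, 6.82%, 15.5% and 16% of all genes. The median log2 change of the members ran from -0.09 (interaction) to 0.10 (mAdu with eGFP), and that of all genes from -0.0036 to 0.0041. Positive changes numbered 8, 5, 6, 3, 6, 2, 7 and 6 of 10, in the same order of comparisons. Of all genes, 49.2%, 50.5%, 50.2%, 50.4%, 48.9%, 51.7%, 49.3% and 49.2% were positive. The 8 for mAdu with eGFP and the 3 for combined treatment against eGFP+mAdu share the eGFP+mAdu mice. For mAdu with eGFP, the other lists of the inhibitory system ran from 4 of 13 positive (receptors) to 15 of 18 (transcription factors and lineage genes).

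Members whose groups did not overlap were also counted. For mAdu with eGFP these were Gad1, Gad2 and Sst, all higher, beside 15.4% of all genes. For mAdu with mVEGF-C they were Gad1, higher, and Npy, lower, beside 16.5%. Npy was higher for mVEGF-C with mIgG, beside 12.4%, and Sst and Reln were lower for mVEGF-C with mAdu, beside 21.7%. Gad1 and Pvalb were higher for combined treatment against eGFP+mIgG, beside 27.2%. Over 6 mice against 6, Gad1 was apart for mAdu, beside 0.921% of all genes, and no member was apart for mVEGF-C, beside 1.01%.

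With the 12 libraries taken as separate mice, the fit bounds the size of change. In the 5 comparisons of 2 groups, 49 of 50 intervals at 95% lay within 1.5 times in either direction, the exception being Reln in combined treatment against eGFP+mAdu, whose interval reached down to 0.644 times. The 20 intervals of the averaged comparisons all lay within that bound, as did 9 of 10 of the interaction.

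**Figure D4:**
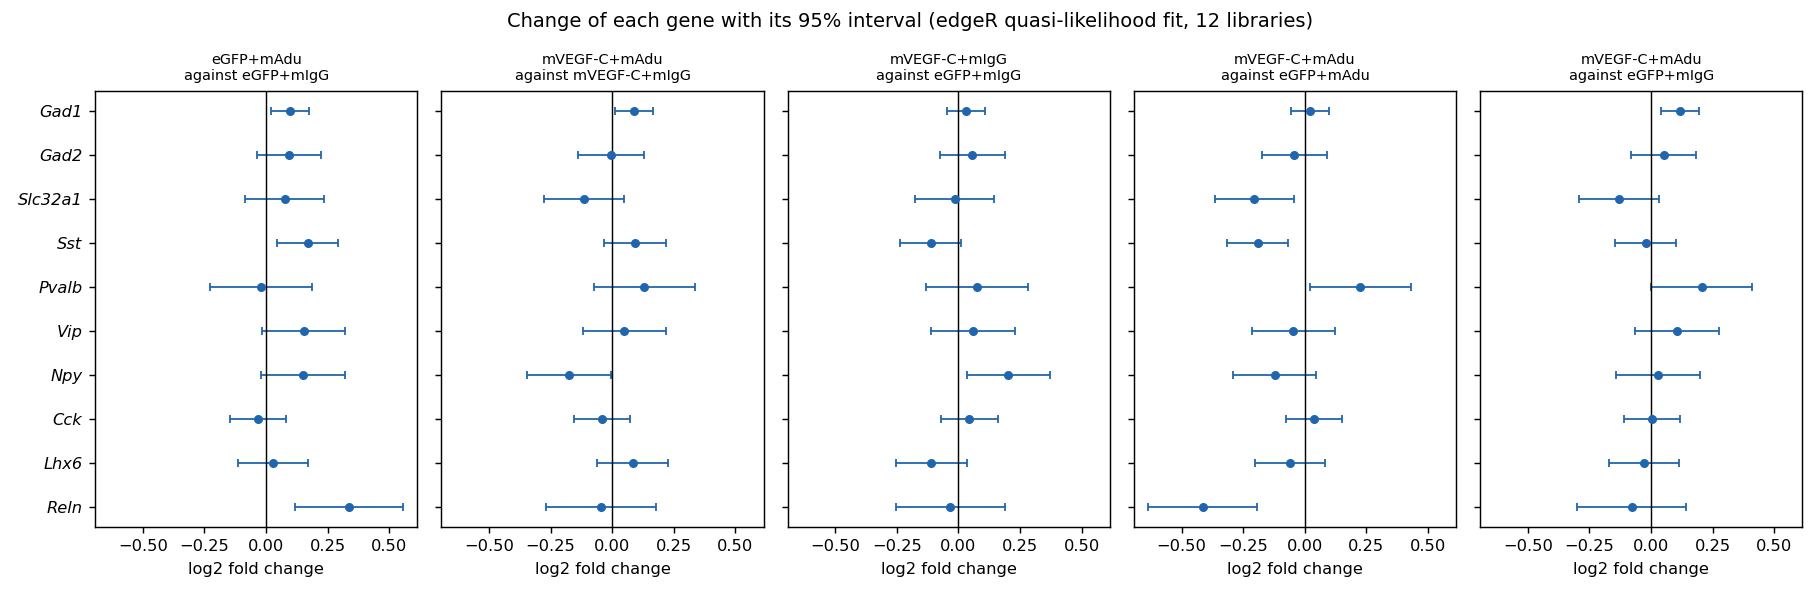
Log2 fold change (horizontal axes) of each gene in the 5 comparisons of 2 groups, as points with 95% intervals from the edgeR fit to 12 libraries. Values run from -0.41 to 0.34, both from Reln, and 49 of the 50 intervals stay within 1.5 times. The intervals take the 12 libraries as separate mice, which was not tested.

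Other tools gave other counts. Limma-voom with sample quality weights called 2 members for mAdu with eGFP (Sst and Reln, beside 3.41% of all genes), 1 for mVEGF-C with mIgG (Sst, beside 6.3%), 4 for mVEGF-C with mAdu (Slc32a1, Sst, Pvalb and Reln, beside 6.52%), 2 for combined treatment against eGFP+mIgG (Gad1 and Pvalb, beside 17.9%), 3 for mAdu averaged (Gad1, Sst and Reln, beside 11.3%) and 4 for mVEGF-C averaged (Slc32a1, Sst, Pvalb and Reln, beside 12%). It gave libraries 3, 6, 9 and 12 weights of 2.75, 2.13, 2.92 and 2.40 and the other 8 libraries 0.419 to 0.78. Limma-voom without these weights called no member. The DESeq2 Wald test called Gad1 alone, in combined treatment against eGFP+mIgG (beside 3.31% of the genes it tested) and in mAdu averaged over vectors (beside 1.76%).

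Further genes of the inhibitory system were taken from lists. Of 10 other genes of GABA synthesis, transport and breakdown, 9 were measured and none passed in any of the 8 comparisons. The transporter gene Slc6a13, also found in the meninges, came closest for mVEGF-C averaged over antibodies, with a log2 value of -0.66 (edgeR adjusted p = 0.105), followed by Pdxk, whose product makes the cofactor of the decarboxylases, at 0.08 for mAdu averaged (edgeR adjusted p = 0.256). Of 20 other transcription factors and lineage genes of GABA neurons, 18 were measured, and Dlx6os1, a noncoding RNA of the Dlx5 and Dlx6 locus, was the only one to pass. Dlx6os1 rose from 27.8 ± 1.90 CPM in eGFP+mIgG to 33.0 ± 0.918 CPM in mVEGF-C+mAdu (SD, n = 3; log2 change 0.24, edgeR adjusted p = 0.0366), and the call was lost when any 1 of libraries 1, 2, 3, 6, 9, 10, 11 and 12 was left out.

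All 15 other genes of parvalbumin-type cells were measured, and 1 passed. Nefh, a heavy neurofilament of large axons, rose from 55.7 ± 1.22 CPM in eGFP+mIgG to 64.7 ± 2.98 CPM in mVEGF-C+mAdu (SD, n = 3; log2 change 0.22, edgeR adjusted p = 0.038), a call lost without library 1, 3, 6, 9, 10 or 12. The median of this list was 0.14 for mAdu with mVEGF-C, with 14 of 15 positive beside 50.5% of all genes. This was its highest count of the 8 comparisons, and the lowest was 5 of 15, for mVEGF-C with mIgG, beside 50.2%. For mAdu with mVEGF-C, receptors of the members' peptides and of reelin were also positive in 12 of 13 and markers of all neurons in 9 of 10 (median 0.04). Other neuronal lists did not go the same way in that comparison. Excitatory neuron markers were negative in 11 of 15 (median -0.03), neurogliaform and ivy cell genes in 7 of 10 and somatostatin-type genes in 7 of 13. Genes of Vip- and Cck-type cells were positive in 9 of 15. Microglia markers were negative in 9 of 9 (median -0.22) and oligodendrocyte markers in 9 of 9 (median -0.16). The part of these other cells in the values of the parvalbumin-type list was not tested. Of 15 other genes of somatostatin-type cells, 13 were measured and 1 passed: Unc13c, a priming factor of synaptic vesicles, was higher for mAdu averaged over vectors (log2 change 0.42, edgeR adjusted p = 0.0437), with 21.5 ± 4.03 and 19.7 ± 1.95 CPM under mIgG and 26.7 ± 2.48 and 28.2 ± 3.86 CPM under mAdu (SD, n = 3, eGFP and mVEGF-C in turn). The Unc13c call was lost without library 1, 3, 4, 5, 6, 9, 10 or 12. The somatostatin-type list had 12 of 13 negative values for mVEGF-C averaged over antibodies, with a median of -0.04, beside 50.8% negative of all genes. That was its highest such count of the 8 comparisons, and the lowest was 3 of 13, for mAdu with eGFP, also beside 50.8%. Nos1 of this list is on the neurogliaform list too, and which cells the values come from was not tested. For mVEGF-C averaged over antibodies, striatal markers were negative in 10 of 14 and septal, thalamic and habenular markers in 7 of 11. Oligodendrocyte markers were positive in 8 of 9.

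None of 15 other genes of Vip- and Cck-type cells passed. Slc17a8, the vesicular glutamate transporter that Cck basket cells also carry, came closest at 0.36 for mVEGF-C averaged (edgeR adjusted p = 0.0755), and Penk, for enkephalin, at 0.55 for mAdu with eGFP (edgeR adjusted p = 0.226). Penk is also on the list of striatal markers, so its value is not particular to interneurons. Among 10 neurogliaform and ivy cell genes none passed, with Kit at 0.39 for the interaction (edgeR adjusted p = 0.408) and Sema5a at -0.18 for mAdu averaged (edgeR adjusted p = 0.0925). None of 9 genes of the perineuronal net, the matrix around parvalbumin cells, passed, and Hapln1 and Hapln2 came closest at 0.17 for mVEGF-C averaged and -0.36 for mAdu with mVEGF-C (edgeR adjusted p = 0.132 and 0.166). Of 15 receptors of the members' peptides and of reelin, 13 were measured and none passed. Npy2r, a receptor of neuropeptide Y, had an interaction of 0.40 (edgeR adjusted p = 0.322), opposite in sign to that of Npy, and Sstr1, a somatostatin receptor, was at 0.26 for mAdu averaged (edgeR adjusted p = 0.162).

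Lists of other cells were measured for comparison. No striatal, septal, thalamic, habenular, Cajal-Retzius or pan-neuronal marker passed. Drd1, a dopamine receptor of striatal neurons, came closest among the first of these at -0.49 for combined treatment against eGFP+mAdu (edgeR adjusted p = 0.0728), and Tac1, which is also on the parvalbumin-type list, was at 0.38 for mAdu with eGFP (edgeR adjusted p = 0.212). Slc17a6 was at 0.50 for combined treatment against eGFP+mIgG (edgeR adjusted p = 0.0582), and Ebf3 and Eomes of the Cajal-Retzius list at -1.60 (interaction) and -2.05 (combined treatment against eGFP+mAdu), with edgeR adjusted p of 0.39 and 0.134. Elavl4 and Uchl1, expressed by all neurons, were at 0.19 and 0.09 for mAdu averaged (edgeR adjusted p = 0.143 and 0.146). Among 15 excitatory neuron markers, Dsp and Nrgn fell for mAdu averaged, by 0.45 and 0.16 on the log2 scale (edgeR adjusted p = 0.0248 and 0.0352), the comparison in which Gad1 gave 0.09. The calls of both were lost without library 1, 3, 4, 6, 10 or 12, and that of Dsp also without library 9. Of glial and choroid plexus lists, Aldh1l1, Mobp, Mal, C1qa and Ttr passed in at least 1 comparison.

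For each member the genes with the most similar profile were listed, by Pearson's r of log2 CPM over the 12 libraries, which differ in depth and treatment. The 3 per member were picked for the highest r among all genes with a symbol, predicted genes left out. High values can arise from such a choice over 12 libraries, and whether any exceeds that was not tested. Profiles of the enzyme and transporter genes lay nearest to Smarcad1 (r = 0.90), Lin52 (0.89) and Ndufaf4 (0.88) for Gad1, to Pag1, Chn2 and Rpp25 (0.88 to 0.86) for Gad2, and to Ecel1, Ano2 and Rarres2 (0.94 to 0.93) for Slc32a1. Sst lay nearest to Fgfbp3 (0.87), Rbp4 (0.85), which is on the somatostatin-type list, and Sec14l3 (0.85). Nearest to Pvalb were Taok1, Rc3h2 and Prr14l (0.96 to 0.95), nearest to Vip were Mgll, Elavl4 and Tpd52 (0.94 to 0.90), and nearest to Npy were Rhoh, Fbxo36 and Plekho1 (0.91 to 0.86). Cck gave Znrd1, Cebpb and H2afv (0.86 to 0.83), Lhx6 gave Peli3, Ap1s1 and Tex264 (0.94 to 0.91), and Reln gave Prkg2, Stx1a and Kcnf1 (0.94 to 0.93). No member was among the 3 nearest genes of another member.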

How the data were processed

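The authors deposited raw, unnormalized counts of reads for each gene. The submitters' processing notes list the tools STAR, featureCounts (Subread), edgeR, Trim Galore and FastQC and the build mm10. Not given in the sources used here are tool versions, the annotation used for counting and its strand setting. RNA was extracted with the PicoPure kit and linearly amplified, per the labels' protocols. GENCODE M21 (GRCm38) named 14791 of 14881 identifiers.

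Counts of all 12 libraries were fitted with edgeR 4.0.16 (R 4.3.3, TMM scaling, 1 mean per group, quasi-likelihood test, two-sided, 8 contrasts). P-values were adjusted by Benjamini-Hochberg over all genes at a threshold of 0.05. The filterByExpr function removed 0 genes, and the lowest gene total was 147 reads. Biological variation, as a common coefficient, was 5.16%. CPM use TMM-scaled totals, and log2 CPM a prior count of 2. Tests were tried on simulated data.

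Members and lists were chosen with earlier results of these data known. Named besides the 10 members were at most 4 passing genes per list, else the 2 with the smallest p, and the 3 most similar genes per member. App was chosen after its values were seen. For the glial and choroid plexus lists only the names of passing genes are given. Alternatives were DESeq2 1.42.0 size factors and Wald test, no filter, limma-voom (limma 3.58.1) with and without sample weights, only the groups compared, striatal or excitatory marker levels as covariates, and libraries left out. Limma-voom without weights was chosen after seeing the data. The p-values take libraries as separate mice, as the design text states, which was not tested.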

Additional observations from a re-analysis of the deposited data

How the results depend on the processing

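The edgeR test called no member in any of the 8 comparisons, and this held with DESeq2 size factors, with no filter, with the striatal covariate, without libraries 3, 6, 9 and 12 and with limma-voom without weights, as well as with only the groups compared, which was run for the 5 comparisons of 2 groups. Members were called by the DESeq2 Wald test (1 for combined treatment against eGFP+mIgG and 1 for mAdu averaged) and by limma-voom with sample weights (2 for mAdu with eGFP, 1 for mVEGF-C with mIgG, 4 for mVEGF-C with mAdu, 2 for combined treatment against eGFP+mIgG, 3 for mAdu averaged and 4 for mVEGF-C averaged). The shares of all genes that these tools called are given above. The excitatory covariate gave 1 for combined treatment against eGFP+mIgG, beside 5.06% of all genes. Leaving out mice 5 and 6 leaves 1 library of eGFP+mAdu, so calls of that fit are not counted here. With single libraries left out, the number ran from 0 to 1 for mAdu with eGFP, 0 to 2 for mVEGF-C with mAdu and 0 to 2 for mVEGF-C averaged, and was 0 in the other comparisons. The highest of these counts came without library 5, beside 0.141%, 0.739% and 1.26% of all genes. The cause of these differences was not tested. Of 1730 recomputed log2 changes, 88 had the opposite sign, the largest of these having a size of 0.19 in the main analysis; 12 came from the striatal covariate and none was a call. No sign changed with DESeq2 size factors. The number of genes called over all genes depended on the setting: combined treatment against eGFP+mIgG gave 324, with 2 to 2660 under the other settings and 12 to 594 with single libraries left out. For mAdu averaged it was 85, with 1 to 1681 and 9 to 172, and for mVEGF-C averaged 58, with 0 to 1789 and 4 to 253. No paired analysis was possible because the groups share no replicate numbers.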
